A study of Mus musculus with 22 samples.

Results

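Hmgcs1, Sqle, Fdft1, Idi1, Lss, Cyp51, Dhcr7 and Insig1 are 7 enzymes of cholesterol synthesis and 1 regulator of the SREBP pathway. They were taken from the count table by gene symbol, as 8 of 39056 genes, and all 8 were among the 14072 genes that passed the filter on low counts. Each value comes from the prefrontal cortex (PFC) of adult male transgenic mice on a C57BL/6J background, aged 8 to 12 weeks, in which a CaMKIIα promoter drives the tetracycline transactivator (tTA) and tTA switches on the ribosomal protein EGFP-Rpl10a from a tetO transgene. All 11 animals, Controls included, carried both transgenes. Control mice (n = 3) received saline, EtOH mice (n = 4) received ethanol to a daily dose of 2 g/kg, and EtOH+ABT-888 mice (n = 4) received the same ethanol with the PARP inhibitor ABT-888 at 25 mg/kg added on day 4. Injections were intraperitoneal, 2 a day for 4 days, and tissue was taken 2 h after the last. Each mouse gave 1 library of RNA pulled down with tagged ribosomes (TRAP, the ribosome-engaged pool) and 1 library of total-RNA from the same homogenate, 22 libraries in all. Total-RNA comes from every cell type of the tissue, so in that pool fewer cells of a type and less RNA per cell cannot be told apart.

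Cells make cholesterol from acetyl-CoA through mevalonate, isoprenoids, squalene and lanosterol. When sterols in the endoplasmic reticulum run low, SCAP escorts the precursor of the transcription factor SREBP-2 to the Golgi, where it is cut, and the freed factor binds sterol regulatory elements in front of the enzyme genes. INSIG proteins hold SCAP back when sterols are plentiful. The brain makes nearly all of its own cholesterol, since lipoproteins of the blood do not cross the blood-brain barrier, and in the adult astrocytes are regarded as a main source for neurons.

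Promoter windows from RefSeq (mouse GRCm38.p6) were matched by symbol for 6 of the 8 genes, Hmgcs1, Idi1, Lss, Cyp51, Dhcr7 and Insig1; Sqle and Fdft1 had no entry. The 250 bases before each start site were searched on both strands for 3 nested forms of the sterol regulatory element (TCACNCCAC, a 10-base form that adds 1 base before it, and CACNCCAC), for the NF-Y box CCAAT, the Sp1 box GGGCGG and the E-box CACGTG. The sequences that follow are shown because SREBP-driven promoters classically combine a sterol regulatory element with NF-Y or Sp1 boxes. They run 5′ to 3′ on the strand of the gene, from chr13:119690101-119690350 (plus strand), chr5:28071382-28071411 (plus), chr13:8885576-8885605 (plus), chr5:4104709-4104738 (minus) and chr10:76531468-76531587 (plus). Start sites here are those of RefSeq. In GENCODE M21 Insig1 starts at 28071363, Idi1 at 8885501 and Cyp51 at 4104746, so the printed stretches of these genes lie inside the annotated genes. Capitals mark the sterol regulatory forms in Hmgcs1 (TCACCCCAC) and Insig1 (GTGGCGTG, CACNCCAC read on the other strand), and CCAAT or its reverse complement ATTGG.
Hmgcs1: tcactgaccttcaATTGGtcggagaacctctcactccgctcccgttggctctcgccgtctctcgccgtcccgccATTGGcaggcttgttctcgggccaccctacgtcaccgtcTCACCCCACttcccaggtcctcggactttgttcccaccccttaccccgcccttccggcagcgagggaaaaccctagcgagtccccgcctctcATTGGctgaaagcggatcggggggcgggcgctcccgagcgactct
Insig1: gggcgcggtacgtgtagtgtcGTGGCGTGt
Idi1: catggtccaaggtgccATTGGctggcgacc
Cyp51: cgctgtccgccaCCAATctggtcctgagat
Lss: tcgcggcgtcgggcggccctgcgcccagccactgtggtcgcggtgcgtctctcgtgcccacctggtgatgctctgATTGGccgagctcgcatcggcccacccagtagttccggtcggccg

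The 10-base form was found in none of the 6 genes and in 0.192% of all 32851 windows. The 9-base form lay 137 bases before the start site in Hmgcs1 and was present in 1.05% of all windows. The 8-base form, which every longer form contains, was in Hmgcs1 and Insig1 and in 5.29% of all windows. The 6 genes had 8 windows, 3 of them of Dhcr7. CCAAT occurred in 6 and GGGCGG in 7 of the 8, against 33.8% and 32.7% of all windows, and CACGTG in 2 of 8 against 6.02%. These are letter matches and not bound sites. Of the genes that passed in EtOH total-RNA, Hmgcs1 held a sterol regulatory form and fell, while Idi1, Cyp51 and Lss held CCAAT and GGGCGG without one, and the first pair fell and Lss rose.

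TRAP libraries held 6570957 to 22002618 counts and total-RNA libraries 22132534 to 32421392. Levels are given as CPM, counts scaled to the size of the library, after trimmed-mean-of-M-values (TMM) scaling over all 22 libraries. Differences are log2 fold changes with standard errors (SE) from edgeR's quasi-likelihood test, adjusted by Benjamini-Hochberg over 14072 genes, and a gene counts as changed at an adjusted p under 0.05. Each replicate is 1 mouse. The pull-down was checked against cell type markers. In Control mice all 6 astrocyte, 6 oligodendrocyte, 4 oligodendrocyte precursor, 5 microglia and 5 endothelial and mural markers were lower in TRAP than in total-RNA. Of 4 excitatory neuron markers, however, Slc17a7 and Neurod6 were lower in TRAP (log2 fold changes −1.13 and −2.23), Camk2a did not pass (−0.17) and Nrgn was higher (1.20), and their summed CPM was 4700 to 6103 in Control TRAP against 3877 to 4742 in Control total-RNA, with overlap. The summed CPM of 6 inhibitory neuron markers was 1827 to 1913 in Control TRAP against 802 to 865 in Control total-RNA, with Gad1, Gad2 and Slc32a1 higher, Pvalb lower (−2.36), and Sst and Vip not passing. The levels of Slc17a7, Neurod6, Gad1, Gad2 and Slc32a1 go against a pull-down restricted to excitatory neurons, and the pool is called TRAP RNA here.

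Per length, Hmgcs1 was the most abundant of the 8 transcripts in Control total-RNA. Its level was 69.6 CPM per kb of exon, followed by Fdft1 (19.8), Insig1 (15.6), Cyp51 (14.2), Sqle (9.96), Dhcr7 (3.93), Lss (2.68) and Idi1 (2.47). The ranges of Insig1 and Cyp51, and those of Lss and Idi1, overlapped among the 3 mice. The other neighbours in this order did not overlap. The order depends on the length used, the union of annotated exons, which is 10787 bases for Lss and 5817 for Dhcr7. By CPM alone Lss (28.9) stood above Dhcr7 (22.9). In Control TRAP Hmgcs1 again led (25.5 CPM per kb, Fdft1 12.2), whereas in EtOH TRAP Fdft1 (27.8) stood above Hmgcs1 (20.6) with no overlap between the 4 libraries of each. Idi1 rested on 17 to 60 counts per TRAP library and is the least precise of the 8.

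**Figure D1:**
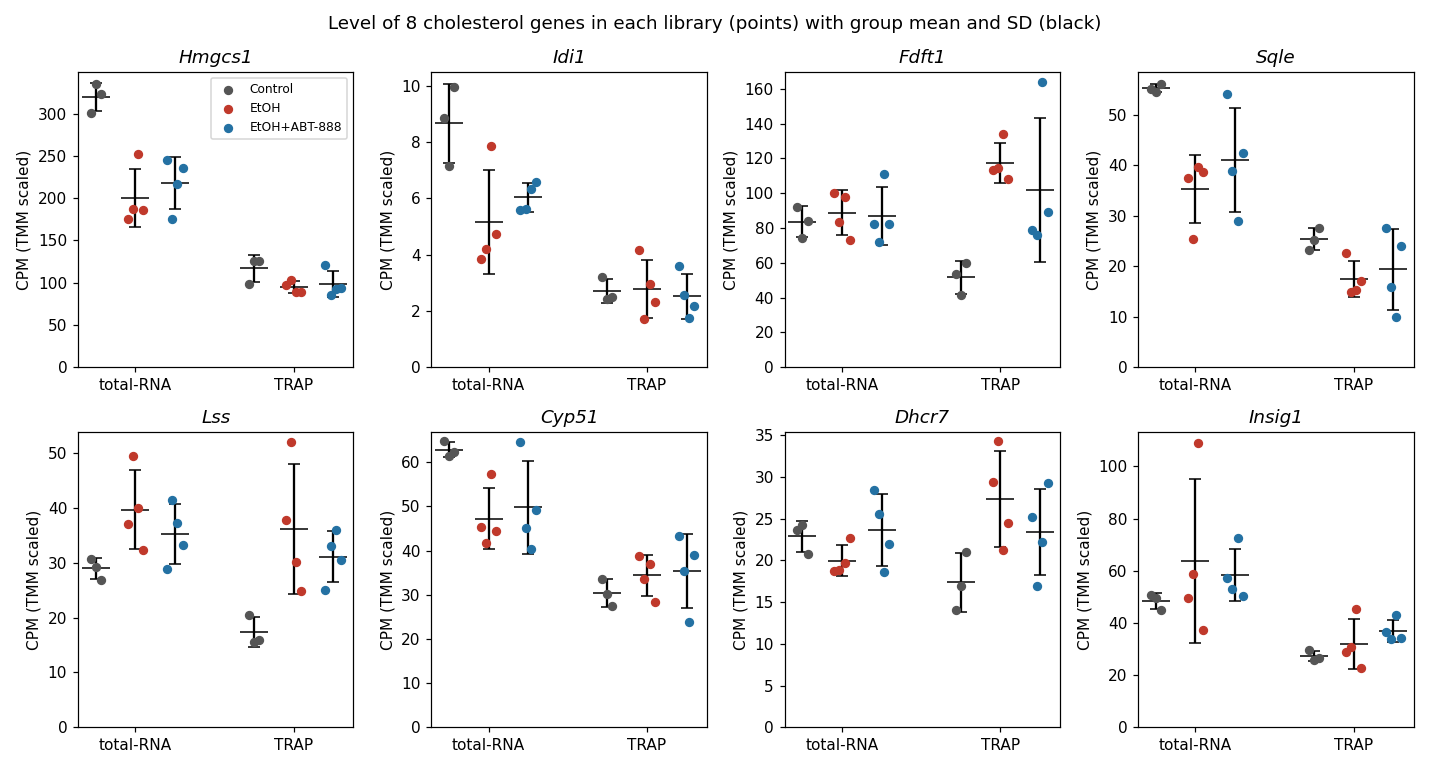
CPM (y axis, from 0) of each of the 8 genes in every library (points) in total-RNA and TRAP, with Control in grey, EtOH in red and EtOH+ABT-888 in blue, and black bars for group mean and SD. Hmgcs1 and Sqle total-RNA points lie lower in EtOH than in Control, while Fdft1 TRAP points rise from 41.5 to 59.7 in Control to 108 to 134 in EtOH.

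In Control mice every one of the 8 genes was lower in TRAP than in total-RNA. The fold changes ran from −1.71 for Idi1 to −0.40 for Dhcr7 on the log2 scale, with a median of −0.96 against 0.015 for all genes. All 8 passed the test as lower, where 59.9% of all genes were called in either direction, 30.4% as lower and 29.5% as higher. Hmgcs1, which makes HMG-CoA at the entry of the mevalonate pathway, was at 301, 335 and 324 CPM in total-RNA of mice 1, 4 and 7 and at 98.8, 126 and 126 CPM in TRAP of the same mice. Its level in TRAP was below its level in total-RNA in all 3 mice (log2 fold change −1.46 ± 0.11 SE, adjusted p = 7.92e-07). Idi1, the isomerase that makes dimethylallyl diphosphate, showed the largest difference (−1.71 ± 0.22, adjusted p = 4.82e-05), and Sqle, which oxidises squalene, and Cyp51, which demethylates lanosterol, followed with −1.14 and −1.07. The groups did not overlap for 7 of the 8, as for 66.9% of all genes. Only for Dhcr7, which reduces a double bond of the sterol ring on the way to cholesterol, did the groups overlap. Its call (adjusted p = 0.0418) was lost in 4 of 6 fits that left out 1 library. In the same comparison 6 of 13 other synthesis enzymes were lower and none was higher. Astrocyte markers summed to 68.1 to 119 CPM in Control TRAP against 1024 to 1087 in Control total-RNA, and oligodendrocyte markers to 339 to 441 against 2291 to 2559; their part in the difference between pools was not tested.

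The pools were compared in the same way within each ethanol group. In EtOH mice 6 of 8 passed (50.7% of all genes), 5 as lower in TRAP (26.5%) and Fdft1 as higher (24.3%). Hmgcs1 (−1.10), Sqle (−1.04), Idi1 (−0.92), Insig1 (−1.01) and Cyp51 (−0.47) were the lower ones. Fdft1, squalene synthase, the first enzyme committed to sterols, was 0.39 ± 0.14 higher in TRAP (adjusted p = 0.0352). Lss was at −0.15 and Dhcr7 at 0.43, and neither passed. With mouse as a replicate block Dhcr7 passed as higher (0.42, adjusted p = 0.049), making 7 of 8. Without the total-RNA library of mouse 8 the count of genes called was 3, with Idi1, Cyp51 and Insig1 lost. In EtOH+ABT-888 mice 4 of 8 passed (41% of all genes), Hmgcs1 (−1.15), Sqle (−1.08), Idi1 (−1.27) and Insig1 (−0.66), each lower in TRAP (21.5% of all genes). There Fdft1 was at 0.24, Lss at −0.18, Cyp51 at −0.50 and Dhcr7 at −0.0096. Cyp51 also passed with mouse as a replicate block (−0.51, adjusted p = 0.00533).

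Within single mice the log2 difference between TRAP and total-RNA of Fdft1 was −0.78, −0.84 and −0.49 in Control mice 1, 4 and 7. It was 0.17, 0.45, 0.45 and 0.57 in EtOH mice 2, 5, 8 and 9, and −0.06, 0.08, 0.56 and 0.12 in EtOH+ABT-888 mice 3, 6, 10 and 11. Every Control mouse held less Fdft1 in TRAP than in total-RNA and every EtOH mouse held more, and no mouse of either ethanol group fell in the Control range. For Lss, lanosterol synthase, the same difference was −0.91 to −0.58 in Control, −0.41 to 0.07 in EtOH and −0.33 to −0.05 in EtOH+ABT-888 mice. For Cyp51 it was −1.18 to −0.94, −0.65 to −0.22 and −0.76 to −0.34. For both genes the Control range was apart from the others. Idi1 (−1.97 to −1.45 in Control, −1.40 to 0.11 in EtOH) and Dhcr7 (−0.74 to 0.02 and 0.11 to 0.87) were apart from Control in EtOH mice but not in EtOH+ABT-888 mice. Hmgcs1 was narrowly apart in EtOH+ABT-888 mice (−1.61 to −1.36 in Control, −1.33 to −1.01). In EtOH mice it overlapped with Control, with mouse 8 the lowest (−1.51), and its mean was −1.07 against −1.15 in EtOH+ABT-888 mice. Insig1 was apart only by its edges in EtOH+ABT-888 mice (−0.945 to −0.760 in Control, −0.756 to −0.556) and overlapped in EtOH mice (−1.26 to −0.725). In all, 5 of the 8 genes did not overlap between Control and EtOH, as 12.7% of all genes, and 5 of 8 between Control and EtOH+ABT-888, as 9.49%. Sqle overlapped with Control in both (−1.24 to −1.02 in Control, −1.37 to −0.72 in EtOH).

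**Figure D2:**
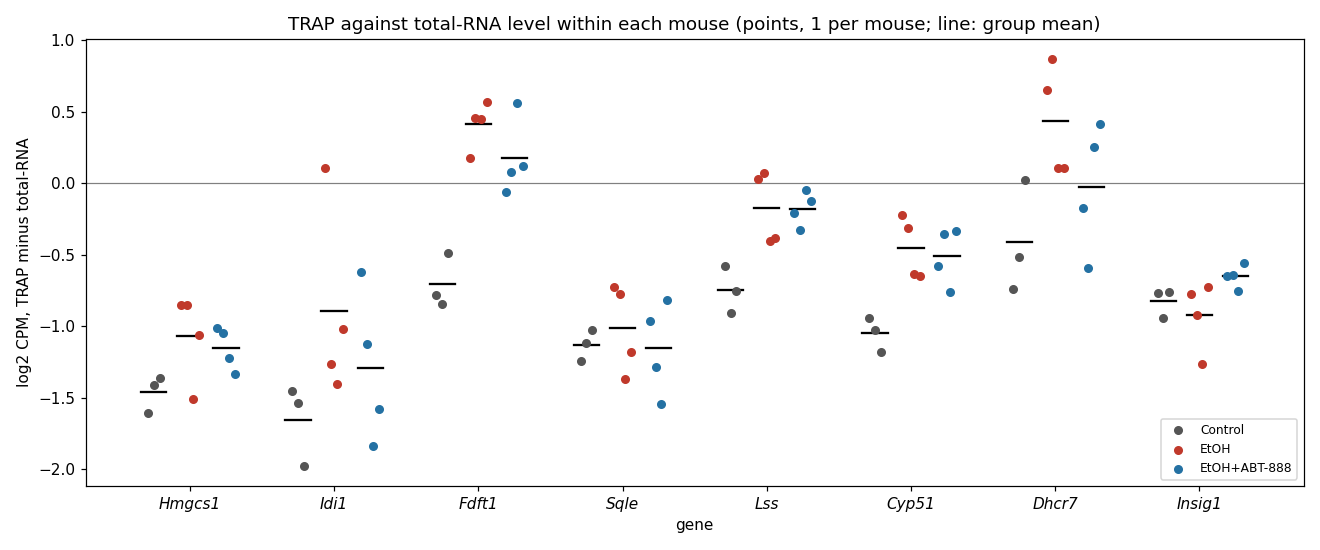
log2 CPM in TRAP minus total-RNA of the same mouse (y axis) for each gene, 1 point per mouse, coloured by treatment, with the group mean as a line. The Fdft1 points run from −0.84 to −0.49 in Control mice and from 0.17 to 0.57 in EtOH mice, while the Sqle points of the 3 groups overlap.

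Whether ethanol acted differently in both pools was asked of the interaction between treatment and pool over all 22 libraries. None of the 8 genes passed for EtOH, where 0.0213% of all genes did, although 4 of the 8 and 4.87% of all genes had an unadjusted p under 0.05 (Fdft1, Dhcr7, Cyp51 and Lss) and edgeR's likelihood ratio test also gave 0. The Fdft1 difference between its TRAP and total-RNA changes was 1.10 ± 0.30 on the log2 scale (95% interval 0.47 to 1.73, adjusted p = 0.523). Each mouse gave both libraries, so mouse was also fitted as a replicate block, by an animal number that the library titles do not hold. Fdft1 then passed (1.12 ± 0.16, adjusted p = 0.0177) as 1 of 14 genes called, 0.0995% of those tested, and the other 7 genes did not pass. Dhcr7 was at 0.84, Idi1 at 0.77, Cyp51 at 0.60, Lss at 0.58, Hmgcs1 at 0.39, Sqle at 0.11 and Insig1 at −0.10. For EtOH+ABT-888, 0 of 8 genes and 0 of all genes passed, with an unadjusted p under 0.05 for Fdft1 and Cyp51 and for 3.38% of all genes. With mouse as a replicate block Fdft1 was at 0.88 ± 0.16 (adjusted p = 0.132).

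In total-RNA, 4 of the 8 genes fell and 1 rose in EtOH against Control. That is 5 of 8 where 17.6% of all genes were called (8.6% as lower and 9.04% as higher), and the median of the 8 was −0.30 against 0.0011 for all genes. Hmgcs1 stood at 176, 187, 252 and 186 CPM in EtOH mice 2, 5, 8 and 9 against 301 to 335 in Control mice. The groups did not overlap, mouse 8 was the highest of the EtOH group, and the mean fell by 37.4% (log2 fold change −0.67 ± 0.12 SE, adjusted p = 0.00401). Sqle stood at 37.4, 25.4, 39.6 and 38.6 CPM against 55.0, 54.5 and 56.1. All EtOH mice were below all Control mice, with mouse 5 the lowest (−0.65 ± 0.14, adjusted p = 0.0103). Idi1 was at 3.84, 4.19, 7.86 and 4.72 CPM against 8.85, 7.15 and 9.96, so that mouse 8 lay within the Control range (−0.75 ± 0.24, adjusted p = 0.0487). Cyp51 was at 45.2, 41.7, 57.3 and 44.4 CPM against 64.7, 61.4 and 62.3, again with mouse 8 nearest to Control (−0.41 ± 0.12, adjusted p = 0.0343). Lss went the other way. It rose from 30.6, 29.3 and 26.9 CPM to 36.9, 49.4, 39.9 and 32.3 CPM with no overlap (0.46 ± 0.14, adjusted p = 0.0413). Groups did not overlap for Hmgcs1, Sqle, Cyp51 and Lss, as for 30.5% of all genes.

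Fdft1 and Dhcr7 did not pass in total-RNA, with differences of 0.09 (95% interval −0.19 to 0.36) and −0.19 (−0.47 to 0.08). Insig1, which retains SCAP in the endoplasmic reticulum and is itself an SREBP target, was at 49.6, 58.8, 109 and 37.3 CPM in EtOH against 50.6, 49.6 and 45.0 in Control. Its difference of 0.40 rested on mouse 8 and was 0.0082 without that library. The calls for Hmgcs1 and Sqle were kept in all 7 fits that left out 1 library, while Idi1 lost its call in 6, Cyp51 in 5 and Lss in 5 of them. In 1 fit over all 22 libraries only Hmgcs1 passed (adjusted p = 0.0313). The count of called genes was 2 without any 1 of the Control mice or without EtOH mouse 5, and 3 without EtOH mouse 2. Microglia markers moved in the same libraries, with 4 of 5 lower and a summed CPM of 76.0 to 110 in EtOH against 219 to 233 in Control, where C1qa did not pass. Astrocyte marker sums overlapped (1004 to 1189 against 1024 to 1087), with Aqp4 lower (−0.41) and Gfap higher (0.75). Oligodendrocyte sums overlapped too (2162 to 2748 against 2291 to 2559), with Mobp higher (0.79), as did those of oligodendrocyte precursors (115 to 137 against 130 to 150), with Gpr17 lower (−1.07). Endothelial and mural marker sums were lower without overlap (95.1 to 126 against 131 to 152), with Flt1 and Rgs5 lower, and inhibitory neuron sums were higher without overlap (915 to 1004 against 802 to 865), with Gad2 higher. Excitatory neuron sums overlapped, with Neurod6 (−0.99) and Nrgn (−0.58) lower. The part of these cell types in the changes was not tested.

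**Figure D3:**
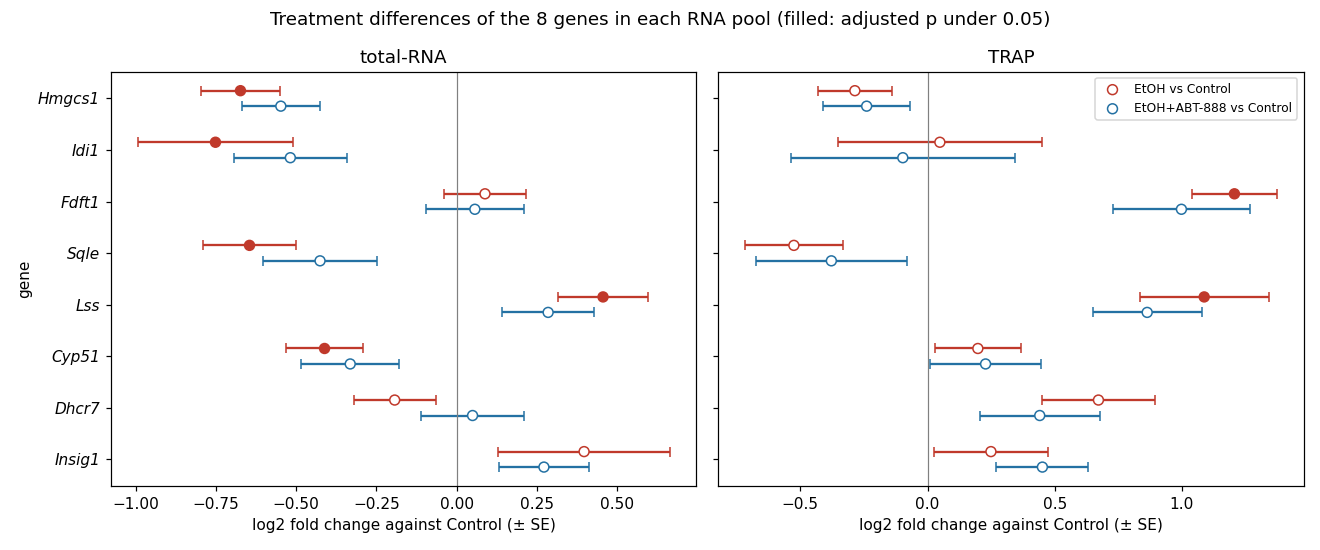
log2 fold change against Control (x axis, bars ± SE) of the 8 genes in total-RNA (left) and TRAP (right) for EtOH (red) and EtOH+ABT-888 (blue), filled where the adjusted p was under 0.05. Hmgcs1 and Sqle lie left of 0 in both pools, and Fdft1 lies near 0 in total-RNA (0.09) and at 1.21 in TRAP after EtOH.

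In TRAP, Fdft1 and Lss rose in EtOH against Control and none of the 8 fell. These 2 of 8 compare with 5.24% of all genes called (2.77% as higher and 2.47% as lower), and the median of the 8 was 0.22 against 0.017. Fdft1 was at 53.6, 41.5 and 59.7 CPM in Control mice and at 113, 114, 134 and 108 CPM in EtOH mice. Every EtOH library was above every Control library, and the mean rose by 128% (log2 fold change 1.21 ± 0.17 SE, adjusted p = 0.00408). Lss rose from 20.5, 15.6 and 15.9 CPM to 37.7, 51.9, 30.1 and 24.8 CPM, also without overlap (1.09 ± 0.25, adjusted p = 0.031). Its call was lost in 4 of 7 fits that left out 1 library (each Control mouse and EtOH mouse 5), which leaves 1 gene called, whereas Fdft1 kept its call in all 7. Dhcr7 (17.4 ± 3.50 CPM in Control and 27.4 ± 5.74 in EtOH, mean ± SD, log2 fold change 0.67 ± 0.22 SE, adjusted p = 0.0972) and Sqle (23.3 to 27.6 against 14.8 to 22.6, −0.53 ± 0.19, adjusted p = 0.13) did not overlap between groups but did not pass. Such separation was found for 22.3% of all genes. Hmgcs1 was at −0.29, Cyp51 at 0.20, Insig1 at 0.25 and Idi1 at 0.05.

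Fdft1 shares 774 bases of exon with Ctsb, a lysosomal protease gene on the other strand, and whether reads were counted by strand is not given in the sources used here. Reads of both genes can then be mixed in that stretch. Ctsb was at 558 ± 19.3 CPM (SD, n = 3) in Control TRAP and 696 ± 116 (n = 4) in EtOH TRAP, a difference of 0.34 that did not pass (adjusted p = 0.198). Cyp51 shares 166 bases with Akap9, which differed by −0.30 in EtOH total-RNA (adjusted p = 0.296). Hmgcs1, Idi1 and Lss overlap the non-coding genes Gm48342, Gm48574 and 4930483K19Rik, over 557, 323 and 381 bases of exon. Levels of these 3 are not analysed here. Astrocyte sums in TRAP (43.7 to 207 CPM in EtOH, 68.1 to 119 in Control) and oligodendrocyte sums (318 to 723 against 339 to 441) overlapped between groups, as did microglia sums (4.60 to 31.8 against 11.9 to 25.0) and excitatory neuron sums (4230 to 5564 against 4700 to 6103). The excitatory neuron marker Neurod6 (−1.68) and the microglia marker P2ry12 (−3.46) passed as lower in EtOH TRAP. Their part in the rise of Fdft1 and Lss was not tested.

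With ABT-888 added, 0 of the 8 genes passed against Control in either pool by edgeR's quasi-likelihood test. In TRAP 0.476% of all genes were called, and Fdft1, Lss and Insig1 had an unadjusted p under 0.05, as 12.1% of all genes did. Fdft1 was at 78.6, 76.1, 164 and 89.3 CPM in mice 3, 6, 10 and 11, above all Control libraries, with mouse 10 far from the others (1.00 ± 0.27, adjusted p = 0.142). Lss was at 24.9, 33.0, 36.0 and 30.5 CPM, above the Control libraries too (0.86 ± 0.21, adjusted p = 0.117). DESeq2 and edgeR's exact test called both genes, and both passed without the TRAP library of mouse 3 (1.11 and 0.96, adjusted p = 0.048 and 0.0348). Insig1 was at 36.6, 33.9, 43.1 and 34.3 CPM against 25.8 to 29.7 in Control, without overlap (0.45 ± 0.18, adjusted p = 0.338). Groups did not overlap for these 3, as for 14% of all genes. Oligodendrocyte sums spread from 318 to 1458 CPM in EtOH+ABT-888 TRAP, highest in mouse 11, and Neurod6 was lower there than in Control (−1.73).

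In total-RNA of EtOH+ABT-888 mice 0.263% of all genes were called against Control. Hmgcs1 was at 245, 176, 217 and 236 CPM, below all Control libraries (−0.55 ± 0.12, adjusted p = 0.0841). Sqle was at 54.0, 38.7, 29.0 and 42.4 CPM, where mouse 3 lay just under the Control range (−0.43 ± 0.18, adjusted p = 0.275). Idi1 was at 5.58 to 6.59 CPM against 7.15 to 9.96 (−0.52 ± 0.18, adjusted p = 0.198). These 3 genes did not overlap with Control, as 16.9% of all genes, and were the 3 with an unadjusted p under 0.05, which 15.9% of all genes had. DESeq2 and edgeR's exact test each called Hmgcs1. Without the total-RNA library of mouse 3, Hmgcs1, Sqle and Cyp51 passed (−0.61, −0.58 and −0.48). Microglia sums were 61.5 to 176 CPM against 219 to 233 in Control, without overlap, though 0 of 5 microglia markers passed. Of 4 excitatory neuron markers 1 passed, as lower, where 0.263% of all genes were called. The part of these cell types was not tested.

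Between EtOH+ABT-888 and EtOH no gene of the 8 passed in TRAP or in total-RNA, where 0% of all genes were called in each, no gene of the 8 had an unadjusted p under 0.05 (0.966% of all genes in TRAP and 1.91% in total-RNA), and DESeq2 and the exact test called none of the 8. For Fdft1 in TRAP the difference was −0.21 (95% interval −0.70 to 0.29) and for Lss −0.22 (−0.74 to 0.30). For Hmgcs1 in total-RNA it was 0.13 (−0.18 to 0.44) and for Sqle 0.22 (−0.20 to 0.64). The groups overlapped for all 8 genes in both pools, and did not for 0.945% and 1.36% of all genes. The widest interval was that of Idi1 in TRAP (−1.10 to 0.81), and missing the threshold does not show that levels were alike.

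A list of 13 other synthesis enzymes was placed beside the 8 in pathway order. In EtOH total-RNA 3 of 13 were lower and 1 higher, against 8.6% and 9.04% of all genes, with a median of −0.24. Mvd (−0.62), which makes isopentenyl diphosphate, and the sterol enzymes Nsdhl (−0.56) and Sc5d (−0.45) were the 3 that fell, and Lbr, a sterol reductase that is also the lamin B receptor, rose (0.55). In EtOH TRAP 0 of 13 passed by edgeR's quasi-likelihood test (5.24% of all genes), 1 had an unadjusted p under 0.05 (23.1% of all genes), and the median was 0.025. In EtOH+ABT-888 against Control 0 of 13 passed in either pool, with an unadjusted p under 0.05 for 4 in total-RNA and 0 in TRAP (15.9% and 12.1% of all genes).

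**Figure D4:**
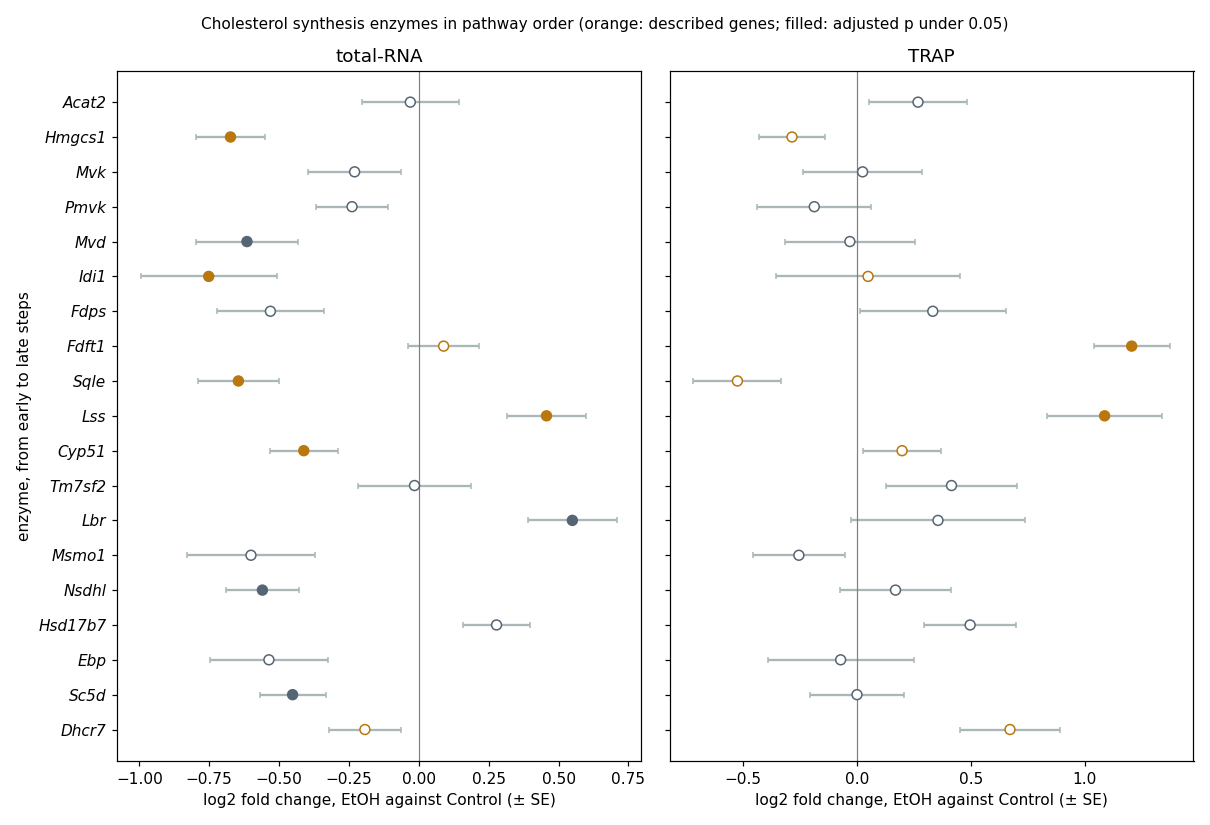
log2 fold change of EtOH against Control (x axis, bars ± SE) for 19 synthesis enzymes from early (top) to late steps, in total-RNA (left) and TRAP (right), with the 7 enzymes described in orange and filled points at an adjusted p under 0.05. Ggps1, on the branch to geranylgeranyl diphosphate, is not drawn. Most total-RNA points lie left of 0, with Lss (0.46) and Lbr (0.55) filled on the right, and in TRAP only Fdft1 and Lss are filled.

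Among 13 genes of SREBP regulation and sterol uptake, 3 fell in EtOH total-RNA, where 8.6% of all genes were lower. Srebf2, which encodes SREBP-2, was at 196, 234 and 177 CPM in Control and at 127, 129, 130 and 121 CPM in EtOH, with no overlap (−0.67 ± 0.11, adjusted p = 0.00175). Stard4, a sterol carrier (−0.57), and Lrp8, a receptor for apolipoprotein E and reelin (−0.43), were the others. In EtOH TRAP 0 of the 13 passed and 5 had an unadjusted p under 0.05, as 23.1% of all genes did, with Srebf2 at −0.35. Of 10 fatty acid synthesis genes 4 fell in EtOH total-RNA (8.6% of all genes), Elovl6 (−0.58), Fads2 (−0.54), Me1 (−0.44) and Fasn (−0.38). In EtOH TRAP 1 of the 10 passed, against 5.24% of all genes, and the median of the list was −0.13. This was Elovl6, an elongase, which fell from 55.3 to 68.3 CPM to 29.8 to 41.2 CPM (−0.89 ± 0.17, adjusted p = 0.0141).

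Genes of cholesterol turnover and export moved in both directions. Of 10, the sterol exporters Abca1 and Abcg1 rose in EtOH total-RNA (0.68 and 0.48), as did Ch25h, cholesterol 25-hydroxylase, while the oxysterol receptor genes Nr1h2 (−0.67) and Nr1h3 (−1.68) fell, 5 of 10 where 17.6% of all genes were called. Abcg4, another transporter of that family, was at −0.12 and did not pass. Abca1 was at 72.9, 72.3 and 65.2 CPM in Control and at 103, 115, 120 and 110 CPM in EtOH. Ch25h had 9, 3 and 0 counts in the Control total-RNA libraries and 31 to 204 in the EtOH ones, so its fold change is not given. Nr1h3 had 49 to 58 and 10 to 28 counts. In EtOH TRAP Abcg1 rose (0.55, adjusted p = 0.0412) and Soat1, which esterifies cholesterol, fell (−1.26, adjusted p = 0.0352), 2 of 10 against 5.24% of all genes. In EtOH+ABT-888 mice 0 genes of the SREBP regulation, fatty acid and turnover lists passed against Control in either pool by edgeR's quasi-likelihood test, with unadjusted p under 0.05 for 2, 4 and 4 genes in total-RNA and for 1, 2 and 2 in TRAP (15.9% and 12.1% of all genes).

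The 5 protein-coding genes outside these lists whose profiles lay nearest to the average of the 8 over 22 libraries were Pcyt1b, Vps13d, Aars, Add3 and Glud1, with root mean square differences of 0.145, 0.158, 0.161, 0.165 and 0.166 log2 units. Among the 8 themselves Cyp51 lay closest to their average (0.164) and Fdft1 farthest (0.511).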

How the data were processed

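RNA counts per gene from 22 libraries of 11 mice were analysed. The authors aligned reads from CORALL total RNA libraries to mm10 with STAR and deposited whole-number counts per gene from featureCounts with ENSEMBL annotation; versions, strand setting and handling of reads with several matches are not given in the sources used here. Symbols and positions came from GENCODE M21 (38872 of 39056 gene IDs matched, 184 not). No column was left unused.

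Genes with at least 500 counts over all libraries and detected in at least 3 were kept (14072). Groups were compared pairwise with edgeR 4.0.16 (R 4.3.3, limma 3.58.1), TMM scaling and the quasi-likelihood test, two-sided, with Benjamini-Hochberg adjustment. SE is the log2 fold change divided by the root of F, and intervals use the t distribution with edgeR's degrees of freedom. The effect of treatment on the difference between pools was an interaction over 22 libraries. log2 CPM used a prior count of 1. Exon length is the union of annotated exons. Scripts were tested on simulated data. Alternatives were DESeq2 1.42.0, the exact test, other scaling and filters, 1 fit over all libraries, a threshold of 0.01, mouse as a replicate block and leaving out each library. The block is the animal number recorded for each library, which the library titles do not hold. Deviations from group means of the 2 libraries of a mouse correlated in all 11 mice (Pearson r 0.102 to 0.622). Libraries of different mice were not compared in this way, so these values do not test the pairing. p-values measure the spread between these mice.

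The 8 genes and all lists were chosen with earlier results of these data known, and some list genes are not reported here. Named were the 8 genes, list genes called in EtOH total-RNA or TRAP (at most 6 per list by p), Srebf2 and the 5 nearest profiles. Named besides were Abcg4 and Ggps1, which were not called there, genes that overlap the 8, and cell type marker genes.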

Additional observations from a re-analysis of the deposited data

Results flagged for a closer look

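Among 100 sets of 4 libraries (25 genes in 4 groups), 4 held a library whose gap to its nearest neighbour exceeded Dixon's 95% critical share of the range. Chance gives about 1 in 20. Hmgcs1 was at 252 CPM in EtOH total-RNA of mouse 8, where the other 3 mice were at 176 to 187 CPM. Sqle was at 25.4 CPM in EtOH total-RNA of mouse 5 against 37.4 to 39.6 CPM. Fdft1 was at 164 CPM in EtOH+ABT-888 TRAP of mouse 10 against 76.1 to 89.3 CPM. Mvd was at 4.67 CPM in EtOH TRAP of mouse 8 against 7.82 to 8.30 CPM.

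The change of Fdft1 with EtOH differed between pools when mouse was fitted as a replicate block. The difference of 1.12 on the log2 scale (TRAP minus total-RNA) passed by edgeR's quasi-likelihood test with an adjusted p of 0.0177 and did not pass without the block (1.10, adjusted p = 0.523).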

How the results depend on the processing

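The number of the 8 genes called changed as follows. At an adjusted p under 0.01 it was 7 for TRAP against total-RNA in Control mice, 2 in EtOH mice and 3 in EtOH+ABT-888 mice, 1 for EtOH TRAP and 1 for EtOH total-RNA against Control. In 1 fit over all 22 libraries it was 1 for EtOH total-RNA and 2 for EtOH+ABT-888 TRAP. For EtOH+ABT-888 TRAP, where 0 passed in the report, the exact test, DESeq2 and no filter on low counts each gave 2 (Fdft1 and Lss). For EtOH+ABT-888 total-RNA the same 3 settings each gave 1 (Hmgcs1). With mouse as a replicate block 1 gene (Fdft1) passed in the interaction of EtOH with pool, the TRAP against total-RNA counts of the report became 7 in EtOH and 5 in EtOH+ABT-888 mice, and no other call of the 8 genes changed. Under that replicate block Sqle in the interaction of EtOH+ABT-888 turned to −0.016. Every other setting with all libraries kept moved a count by at most 1 gene. The causes were not tested.

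Leaving out 1 library at a time gave 3 to 6 called genes for TRAP against total-RNA in EtOH mice, 1 to 2 for EtOH TRAP, 0 to 2 for EtOH+ABT-888 TRAP, 2 to 4 for EtOH total-RNA and 0 to 3 for EtOH+ABT-888 total-RNA. Log2 fold changes that turned sign were in TRAP against total-RNA of EtOH+ABT-888 mice Fdft1 (−0.10 to 0.37) and Dhcr7 (−0.14 to 0.11), in EtOH TRAP Idi1 (−0.18 to 0.22) and in EtOH+ABT-888 TRAP Idi1 (−0.32 to 0.058). In TRAP of EtOH+ABT-888 against EtOH they were Hmgcs1 (−0.056 to 0.11), Sqle (−0.060 to 0.37), Idi1 (−0.36 to 0.088), Lss (−0.36 to 0.026) and Cyp51 (−0.068 to 0.18). In EtOH+ABT-888 total-RNA they were Fdft1 (−0.086 to 0.14) and Dhcr7 (−0.049 to 0.15). In total-RNA of EtOH+ABT-888 against EtOH they were Fdft1 (−0.17 to 0.048), Cyp51 (−0.070 to 0.19) and Insig1 (−0.31 to 0.26). In the interactions they were Sqle (−0.041 to 0.18) and Insig1 (−0.38 to 0.22) for EtOH and Sqle (−0.18 to 0.27) for EtOH+ABT-888. None of these had passed the test.

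Counts over all genes moved too. EtOH TRAP went from 737 to 1523 with DESeq2, 1372 with the exact test, 1472 with no filter and 1191 in 1 fit over all libraries. EtOH+ABT-888 TRAP went from 67 to 420, 318, 454 and 403 in the same order, and EtOH+ABT-888 total-RNA from 37 to 621, 544 and 544 in the first 3 of these. EtOH total-RNA went from 2482 to 151 in 1 fit over all libraries, and EtOH+ABT-888 total-RNA went to 70 with edgeR's filterByExpr. At an adjusted p under 0.01 the counts were 87 for EtOH TRAP, 0 for EtOH+ABT-888 TRAP, 802 for EtOH total-RNA and 0 for EtOH+ABT-888 total-RNA, and that of TRAP against total-RNA in EtOH+ABT-888 mice was 3815 instead of 5769. The interaction of EtOH gave 3 genes, 16 with the likelihood ratio test, 14 with the replicate block, 5 with no filter and 1 at the stricter threshold, and that of EtOH+ABT-888 gave 0, 6 with the likelihood ratio test and 1 with no filter. EtOH+ABT-888 against EtOH total-RNA gave 0, and 2 with DESeq2 or the exact test. Groups of 3 or 4 mice and as few as 17 counts of Idi1 in a TRAP library limit the precision.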

Other observations

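The related lists were also compared between pools in Control mice, where 30.4% of all genes were lower and 29.5% higher in TRAP. Of 10 fatty acid synthesis genes 8 were lower in TRAP than in total-RNA and 0 higher, with a median log2 fold change of −1.33. Fads2, a desaturase, was at 74.7 ± 7.88 CPM (SD, n = 3) in total-RNA and 9.32 ± 2.49 in TRAP, and Me1, which supplies NADPH, at 44.0 ± 0.858 and 10.6 ± 3.22. Of 13 genes of SREBP regulation and uptake 7 were lower and 4 higher, and of 10 genes of turnover and export 2 were lower and 3 higher, a share of 50% called against 59.9% of all genes. Abcg1 was among the higher ones, at 129 ± 5.77 CPM in TRAP and 78.4 ± 4.68 in total-RNA.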
